A study of Mus musculus with 24 samples.

Results

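The Zfp900-series zinc finger genes were taken as the genes of the expression table whose symbol is Zfp9 followed by 2 further digits. There were 59 such genes among the 16572 gene names of the table, each with 1 row. They lay on 12 chromosomes, and 42 of them fell into 6 clusters, a cluster being a run of members on 1 chromosome whose neighbouring starts were at most 1 Mb apart. The other 17 stood alone.

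The RNA-seq libraries came from class IV oocytes (60 to 70 μm across by the sample labels), the last of the size classes, grown without follicles from ovaries of mice aged 7 days. The IV 5% O2 oocytes were grown for 9 days and the IV 20% O2 oocytes for 14 days, so that oxygen and culture time cannot be told apart. The labels name the strain of both groups as C57BL/6 Barb, a name that the text of the study spells C57BL6/Babr and gives as the background of F1 females. Its methods describe C57 Black6 mice bred with an SV129 background. Each condition had 2 libraries, of which the table gives 1 column per condition, so that the spread between libraries is unknown and no test between conditions was possible. The methods give the IV 20% O2 oocytes a smaller diameter than the labels do. Values were read as RPM, the reads of a gene scaled to the depth of its column, and the intervals given are exact Clopper-Pearson 95% intervals that cover counting error only. An interval belongs to the log2 ratio of RPM without a pseudocount, so that the difference of log2(RPM + 1), which is drawn towards 0 at low levels, can lie outside it.

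Most Zfp genes of this series encode KRAB zinc finger proteins. In these proteins a row of C2H2 fingers, each folded around a zinc ion, binds DNA, and the KRAB domain recruits the corepressor TRIM28, which brings the histone methyltransferase SETDB1 and so leads to silenced chromatin, often at transposable elements. The family grows by duplication of neighbouring genes, so that members of 1 cluster can be close copies of each other.

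By a pattern search of the longest annotated coding sequence, 57 of the 59 members encoded at least 1 C2H2 finger, 56 a KRAB A box and 55 both. The number of fingers among those with any ran from 2 in Zfp993 to 21 in Zfp974, with a median of 11 over all members, and protein length ran from 150 residues in Zfp935 to 794 in Zfp945. Zfp957, of 567 residues, held neither a finger nor a KRAB A box by these patterns. Zfp935 held a KRAB A box without a finger. Zfp956 and Zfp974 held fingers without a KRAB A box.

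How alike the copies are is shown by 1 finger unit, 84 coding bases with the finger and its linker. For the clusters shown here, on chromosomes 2, 4 and 17, the middle finger of 1 member was taken as the reference. The closest unit of every other member was found, and capitals mark bases that differ from the reference. In the cluster on chromosome 2 the reference was Zfp968 (chr2:175382703-175382786, plus strand, GRCm38), and Zfp966, Zfp967 and Zfp969 carried the same 84 bases without a difference. The closest units were those of Zfp965 (chr2:175479750-175479833, plus strand), Zfp970 (chr2:177475451-177475534, plus strand), Zfp971 (chr2:178033426-178033509, plus strand) and Zfp931 (chr2:178068028-178068111, minus strand), with 6, 2, 2 and 7 differences.
Zfp968: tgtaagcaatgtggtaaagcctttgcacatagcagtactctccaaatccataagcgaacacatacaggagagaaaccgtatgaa
Zfp965: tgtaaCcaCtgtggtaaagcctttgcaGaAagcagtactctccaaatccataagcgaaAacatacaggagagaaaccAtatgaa
Zfp970: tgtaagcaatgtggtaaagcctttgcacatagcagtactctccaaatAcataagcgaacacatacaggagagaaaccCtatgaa
Zfp971: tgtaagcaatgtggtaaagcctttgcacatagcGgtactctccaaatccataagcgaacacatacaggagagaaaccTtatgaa
Zfp931: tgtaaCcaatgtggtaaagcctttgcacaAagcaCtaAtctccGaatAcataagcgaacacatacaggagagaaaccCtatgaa

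In the cluster on chromosome 4 the reference was Zfp991 (chr4:147179311-147179394, plus strand). The closest unit of Zfp992 (chr4:146466967-146467050, plus strand) differed from it at 1 base, that of Zfp980 (chr4:145701543-145701626, plus strand) at 10, that of Zfp978 (chr4:147390856-147390939, plus strand) at 9 and that of Zfp933 (chr4:147826574-147826657, minus strand) at 19. Zfp991, Zfp978, Zfp980 and Zfp992 are shown because they were the members of the cluster at least 2-fold lower in IV 5% O2 among those with a mean of at least 1 RPM, and Zfp933 because none of its exonic windows was repeated elsewhere.
Zfp991: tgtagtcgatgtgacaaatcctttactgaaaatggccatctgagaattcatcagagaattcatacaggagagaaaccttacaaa
Zfp992: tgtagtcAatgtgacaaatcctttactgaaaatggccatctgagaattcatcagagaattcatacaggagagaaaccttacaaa
Zfp980: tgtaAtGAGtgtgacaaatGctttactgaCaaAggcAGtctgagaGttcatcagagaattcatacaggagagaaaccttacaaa
Zfp978: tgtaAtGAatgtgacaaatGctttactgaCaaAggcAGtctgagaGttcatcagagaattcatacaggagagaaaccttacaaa
Zfp933: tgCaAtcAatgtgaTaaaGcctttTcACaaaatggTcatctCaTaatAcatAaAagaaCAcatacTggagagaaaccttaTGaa

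In the cluster on chromosome 17 the reference was Zfp947 (chr17:22145720-22145803, minus strand), the member with the largest log2(RPM + 1) difference in favour of IV 5% O2, although the RPM ratio of Zfp995, at a far lower level, was slightly higher. The closest unit of Zfp995 (chr17:21880280-21880363, minus strand) differed at 1 base, that of Zfp994 (chr17:22201163-22201246, minus strand) at 2 and that of Zfp983 (chr17:21662388-21662471, plus strand) at 22.
Zfp947: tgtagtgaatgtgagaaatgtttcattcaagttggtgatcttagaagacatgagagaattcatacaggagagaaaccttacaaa
Zfp995: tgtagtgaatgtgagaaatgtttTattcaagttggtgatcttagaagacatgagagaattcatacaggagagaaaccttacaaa
Zfp994: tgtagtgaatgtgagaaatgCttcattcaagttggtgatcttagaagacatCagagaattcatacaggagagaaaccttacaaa
Zfp983: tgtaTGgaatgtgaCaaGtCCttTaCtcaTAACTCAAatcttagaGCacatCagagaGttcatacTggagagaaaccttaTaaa

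Whole proteins were compared within clusters as identical residues over the length of the longer protein. The median identity of the 36 pairs on chromosome 2 was 67.4%, that of the 105 pairs on chromosome 4 was 52.4% and that of the 45 pairs on chromosome 17 was 47.5%. The coding sequences of Zfp966, Zfp967, Zfp968 and Zfp969, of 485 residues, were identical, and so were those of Zfp965 and Zfp973, of 318 residues. Zfp991 and Zfp992 shared 98.95% of residues, Zfp947 and Zfp995 90.4%, and Zfp987 and Zfp988 90.4%. For such members a read cannot always be placed, and how the counting treated reads with several matches is not stated, so their values are uncertain. As a measure of this, windows of 100 bases were taken every 10 bases along the exons, and those present more than once in the genome were counted as repeated. Of the 59 members, 14 had no repeated window, 13 had over 50% of windows repeated and 5 of these had all of them repeated.

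The depth of the IV 5% O2 column was 132185254 reads and that of the IV 20% O2 column 40875363, a ratio of 3.23. Oocyte markers were abundant in both, with a sum of 9208 RPM over 10 of 10 genes in IV 5% O2 and of 12972 RPM in IV 20% O2, ranging from 28.3 RPM for Figla to 2346 RPM for Gdf9 in IV 5% O2. Of the granulosa markers 7 of 10 were in the table, with a sum of 42.9 RPM in IV 5% O2 against 29.8 RPM in IV 20% O2. Of that list, Amh and Foxl2 were not among the rows and Fshr had 0 and 6 reads. Other granulosa markers were present, the highest being Nr5a2 at 18.7 RPM against 17.6 RPM in IV 20% O2. Next were Kitl (10.2 against 5.58 RPM) and Cyp19a1 (9.12 against 5.70 RPM). Of the 4 granulosa markers tested, all had a positive log2 difference and 1, Inhba, was at least 2-fold higher in IV 5% O2. Of the theca and stroma markers 9 of 12 were in the table, with a sum of 44.3 RPM in IV 5% O2 against 5.16 RPM in IV 20% O2. Their part in the values of the zinc finger genes was not tested, and fewer cells of a type and less RNA per cell cannot be told apart in such bulk samples. Over all genes tested the log2 difference had a median of 0.26 as deposited, -0.04 after median-ratio scaling (columns scaled until the median ratio of genes with reads in both was 1) and 0.06 after quantile normalization (both columns given 1 distribution). The differences below are as deposited and include this shift.

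The 59 members together held 1246 RPM in IV 5% O2, against 1169 RPM in IV 20% O2, a direction that turned under median-ratio scaling (1115 and 1306 RPM) and under quantile normalization (1165 and 1257 RPM). Their mean over the columns was at least 10 RPM for 27 members, from 1 to under 10 RPM for 26 and under 1 RPM for 6. The 5 members with the highest mean, Zfp970, Zfp957, Zfp961, Zfp958 and Zfp956, made up 48.2% of the summed RPM in IV 5% O2 and 43.6% in IV 20% O2. Members with a high level in one column tended to have one in the other, with a Pearson r of 0.88 for log2(RPM + 1) over the 59 members, beside 0.88 over all genes tested. These are correlations across genes, several of which share sequence.

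**Figure D1:**
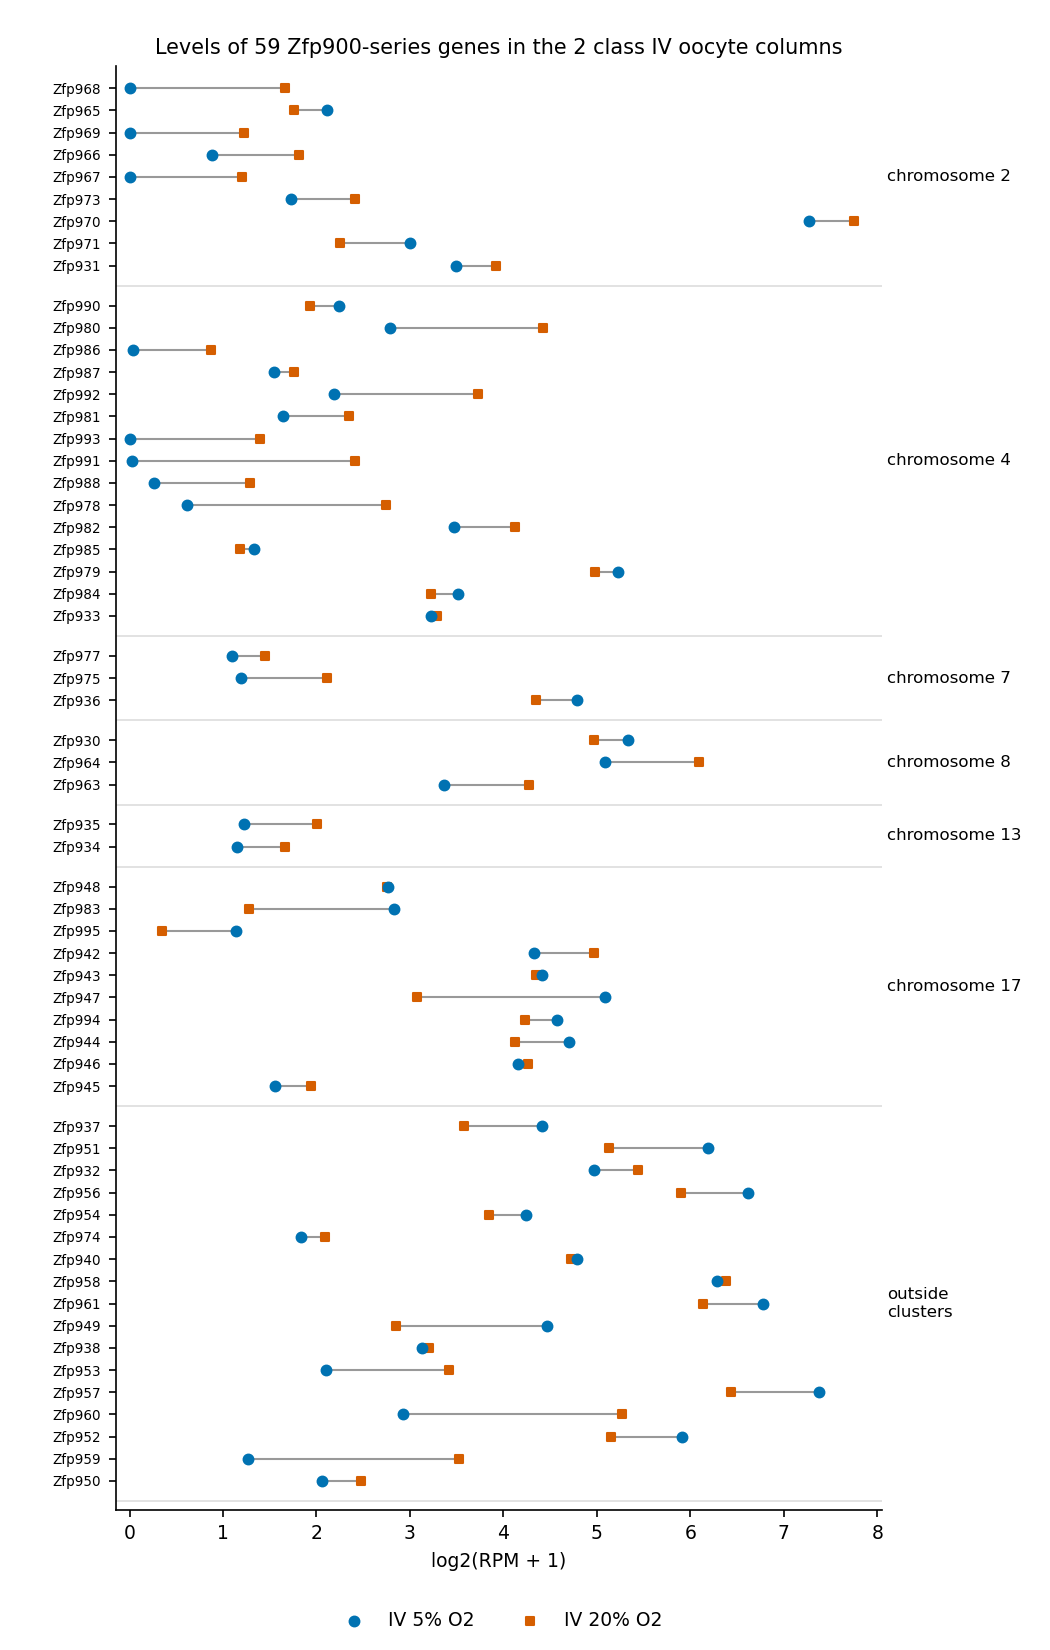
Each row is 1 of the 59 genes, ordered by cluster and position, with its level as log2(RPM + 1) in IV 5% O2 (circle) and IV 20% O2 (square). Zfp970 has the highest mean level, and 4 genes of the clusters on chromosomes 2 and 4 (Zfp967, Zfp968, Zfp969, Zfp993) have no reads in IV 5% O2.

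Per exonic length, the order of the highest levels was led by Zfp970 with 70.5 RPM per kb in IV 5% O2 and 98.8 in IV 20% O2. Zfp957 followed with 51.2 and 26.6 RPM per kb, Zfp956 with 32.6 and 19.7, and Zfp958 with 32.6 and 34.8. In IV 5% O2 Zfp956 and Zfp958 thus stood at the same level, whereas in IV 20% O2 Zfp958 was the second highest. Zfp961 had 25.0 and 15.96 RPM per kb. Among members with at least 100 reads in both columns, Zfp945 was the lowest with 0.19 and 0.28 RPM per kb.

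To ask which members differed between the conditions, the log2(RPM + 1) of IV 20% O2 was subtracted from that of IV 5% O2, and a gene with a mean of at least 1 RPM was counted as higher or lower when it was at least 2-fold apart. Of the 59 members 53 passed this filter, and the 6 that did not were Zfp967, Zfp969, Zfp986, Zfp988, Zfp993 and Zfp995. Among the 53, 4 were higher in IV 5% O2 (7.55%), beside 18.7% of the 14704 genes tested, and 9 were lower (16.98%), beside 9.22% of all genes. Zfp968, Zfp978 and Zfp991 of the lower members were under 1 RPM in IV 5% O2 and passed the filter only through IV 20% O2, where they were high, as did 27.9% of the lower genes overall. After median-ratio scaling 3 members were higher and 12 lower, beside 11.6% and 13.88% of all genes, and after quantile normalization 3 were higher and 13 lower, beside 11.996% and 12.7%. With a pseudocount of 5 only 2 were higher and 4 lower, beside 8.17% and 4.80% of all genes, and after division by exonic length 2 and 5, beside 13.3% and 7.44%. In either direction 27.9% of all genes were called. The median log2 difference of the members was -0.11, that is 0.37 below the median gene, and 23 members had a positive and 30 a negative difference. The sign of this median depended on which members were counted. It was 0.06 among members with a mean of at least 5 RPM, and also 0.06 among the 29 tested members with at most 10% of windows repeated, where 3 were higher and 3 lower, beside 19.3% and 7.15% of all genes under the same limit. Both values still lay below the median gene, by 0.17 with a minimum mean of 5 RPM and by 0.23 with the limit on repeated windows.

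**Figure D2:**
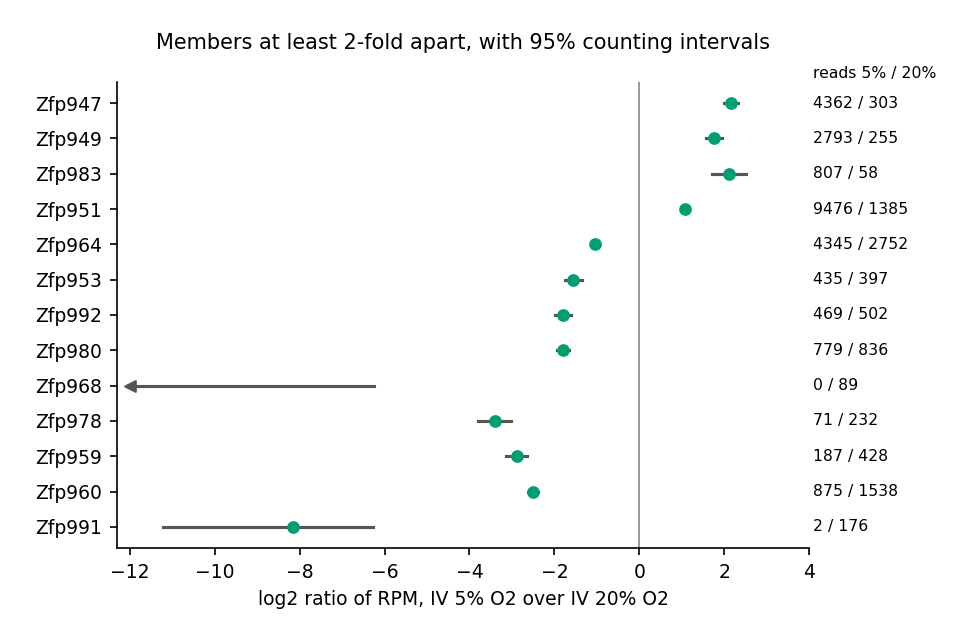
For the 13 genes at least 2-fold apart, the point gives the log2 ratio of RPM in IV 5% O2 over IV 20% O2 without a pseudocount, the bar its 95% counting interval, and the right column the reads. Zfp947, Zfp949, Zfp983 and Zfp951 lie above 0, and the bar of Zfp968, without reads in IV 5% O2, has no lower end and is drawn as an arrow.

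The 4 members that were higher in IV 5% O2 had 58 to 1385 reads in the shallower column. Zfp947, in the cluster on chromosome 17, had 4362 reads (33.0 RPM) in IV 5% O2 and 303 reads (7.41 RPM) in IV 20% O2, with a log2 difference of 2.01 and a 4.45-fold ratio (log2 interval 1.99 to 2.33). Zfp983, in the same cluster, had 807 reads (6.11 RPM) and 58 reads (1.42 RPM), a log2 difference of 1.55 and a 4.30-fold ratio (interval 1.72 to 2.52). Both were multi-finger genes with a KRAB A box, and 12.7% and 1.32% of their windows were repeated. Zfp949, alone on chromosome 9, had 2793 reads (21.1 RPM) and 255 reads (6.24 RPM), a log2 difference of 1.61 (interval 1.57 to 1.95). Zfp951, outside clusters on chromosome 5, had 9476 reads (71.7 RPM) and 1385 reads (33.9 RPM), a log2 difference of 1.06 (interval 1.00 to 1.16). Zfp951 was the nearest to the 2-fold limit from above and fell under it after median-ratio scaling, after quantile normalization, with a pseudocount of 5 and after division by exonic length, with values down to 0.75 over all alternatives tried. Zfp947 and Zfp949 stayed at least 2-fold higher under each alternative that gave them a value. Zfp983 also fell under 2-fold with a pseudocount of 5, as did Zfp968, Zfp978 and Zfp991 of the lower members. The nearest member below the limit was Zfp957, at 165 RPM (21785 reads) and 85.7 RPM (3502 reads), with a log2 difference of 0.94.

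Of the 9 members that were lower in IV 5% O2, 4 had over 50% of their windows repeated (Zfp960, Zfp968, Zfp980 and Zfp991). Zfp960, alone on chromosome 17, had 875 reads (6.62 RPM) in IV 5% O2 and 1538 reads (37.6 RPM) in IV 20% O2, with a log2 difference of -2.34 (interval -2.63 to -2.39). It shared 158 of its 232 windows with Zfp97, another KRAB zinc finger gene, and Zfp97 was also lower, with 9.33 RPM and 35.8 RPM. Reads of these 2 genes cannot be fully told apart. Zfp991, on chromosome 4, had 2 reads in IV 5% O2 and 176 reads (4.31 RPM) in IV 20% O2, which gave a log2 difference of -2.39 and a 285-fold ratio whose log2 interval ran from -11.2 to -6.28. It shared 107 of its 225 windows with Zfp992, which had 469 reads (3.55 RPM) and 502 reads (12.3 RPM), a log2 difference of -1.55. Zfp980 had 779 reads (5.89 RPM) and 836 reads (20.5 RPM), a log2 difference of -1.64, and shared 135 of 354 windows with Rex2. Zfp978 had 71 reads (0.54 RPM) and 232 reads (5.68 RPM), a log2 difference of -2.12, and shared 26 of 82 windows with Zfp600. Rex2 and Zfp600, zinc finger genes of the same cluster, were themselves lower, with 0.93 and 20.5 RPM for Rex2 and 1.41 and 16.2 RPM for Zfp600.

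A further 3 of the lower members had few repeated windows. Zfp959, alone on chromosome 17, had 187 reads (1.41 RPM) in IV 5% O2 and 428 reads (10.5 RPM) in IV 20% O2, with a log2 difference of -2.25 and a 7.40-fold ratio (log2 interval -3.14 to -2.64), with 5.47% of its windows repeated. Zfp953, outside the cluster on chromosome 13, had 435 reads (3.29 RPM) and 397 reads (9.71 RPM). Its log2 difference was -1.32 (interval -1.76 to -1.36), with 0.47% repeated. Its row overlapped those of Gm28041 and Gm28044 on the same strand, so reads of the 3 genes may be mixed. Zfp964, in the cluster on chromosome 8, had 4345 reads (32.9 RPM) and 2752 reads (67.3 RPM), a log2 difference of -1.01 (interval -1.10 to -0.96), with 0.55% repeated. Zfp959 stayed at least 2-fold lower under each alternative, whereas Zfp953 and Zfp964 fell under 2-fold with a pseudocount of 5 and after division by exonic length. The nearest members outside the limit on this side were Zfp966 at -0.94 and Zfp975 at -0.93.

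In the cluster of 9 members on chromosome 2, 1 of 7 tested was lower (14.3%), beside 9.22% of all genes. None was higher, beside 18.7% of all genes, and the median log2 difference was -0.48, beside 0.26. The 1 call, Zfp968, was lost with a pseudocount of 5, a minimum mean of 5 RPM, at most 10% of windows repeated or division by exonic length. Zfp970 held most of the signal of this cluster, with 20250 reads (153 RPM) in IV 5% O2 and 8769 reads (215 RPM) in IV 20% O2, which was 86.6% and 87.04% of the summed RPM of the 9 members. Its log2 difference was -0.48 (interval -0.52 to -0.45), under the 2-fold limit. Of the 4 members with identical coding sequence, Zfp968 had 0 and 89 reads (0 and 2.18 RPM, difference -1.67), Zfp969 0 and 55 reads, Zfp967 0 and 53 reads and Zfp966 111 and 103 reads (0.84 and 2.52 RPM). A count of 0 in IV 5% O2 allows up to 0.0227 RPM (3 reads), and against this floor Zfp968 was at least 95.9-fold lower there, Zfp969 at least 59.3-fold and Zfp967 at least 57.1-fold. These folds leave out the counting error of IV 20% O2, and with it the log2 intervals of the 3 genes ended at -6.26, -5.54 and -5.49. Of the reads listed under the 4 copies, all stood under Zfp966 in IV 5% O2, whereas in IV 20% O2 they were spread over the 4. How reads were placed among these and other copies was not tested. Summed over the 4, the copies had 111 reads (0.840 RPM) and 300 reads (7.34 RPM), a log2 ratio of -3.13 (interval -3.46 to -2.81). The pair with identical coding sequence, Zfp965 and Zfp973, had differences of opposite sign, 0.35 (439 and 98 reads) and -0.69 (305 and 177 reads). Zfp971 had the most positive difference of the cluster, 0.74 (6.98 and 3.77 RPM, 922 and 154 reads), and Zfp931, of which 5.47% of windows were repeated, had -0.42 (10.3 and 14.1 RPM, 1359 and 577 reads).

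In the cluster of 15 members on chromosome 4, 4 of 12 tested were lower (33.3%), beside 9.22% of all genes. These 4 were Zfp980, Zfp992, Zfp991 and Zfp978. Of them Zfp991 and Zfp978 were under 1 RPM in IV 5% O2 and passed the filter only through IV 20% O2. None was higher, beside 18.7% of all genes, and the median log2 difference was -0.44, beside 0.26. With at most 10% of windows repeated 0 were lower, since all 4 had more than that share repeated. Only Zfp990, Zfp985 and Zfp933 were then left, so that the median, 0.15, was the value of Zfp985 alone. The highest member was Zfp979, with 4798 reads (36.3 RPM) in IV 5% O2 and 1250 reads (30.6 RPM) in IV 20% O2, with a log2 difference of 0.24 that became -0.07 after median-ratio scaling. Next by the mean of the columns came Zfp982, with 10.1 and 16.5 RPM (1336 and 673 reads) and a difference of -0.65. The largest positive difference was that of Zfp990, 0.31 (3.72 and 2.81 RPM, 492 and 115 reads). Zfp933, without a repeated window, had 1106 reads (8.37 RPM) and 359 reads (8.78 RPM), and its interval, -0.24 to 0.11, held 0. Of the 3 members under the filter, Zfp993 had 0 and 67 reads, at least 72.2-fold lower in IV 5% O2 against the same floor (log2 interval up to -5.84), Zfp986 had 3 and 34 reads, a 36.7-fold ratio with a log2 interval of -7.54 to -3.53, and Zfp988 had 26 and 59 reads.

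The cluster of 10 members on chromosome 17 had 2 of 9 tested members higher (Zfp947 and Zfp983) and none lower, a share of 22.2% higher that was near the 18.7% of all genes. Its median log2 difference was 0.06, but -0.24 after median-ratio scaling and -0.10 after quantile normalization. The highest member by mean was Zfp942, with 2526 reads (19.1 RPM) in IV 5% O2 and 1236 reads (30.2 RPM) in IV 20% O2, and it also had the most negative difference, -0.64 (interval -0.76 to -0.56). Zfp944 had 25.0 and 16.5 RPM (3305 and 673 reads) and a difference of 0.57, and Zfp994 22.7 and 17.8 RPM (3006 and 728 reads) and 0.34. For Zfp943 (20.2 and 19.4 RPM, 2673 and 791 reads), Zfp948 (5.79 and 5.75 RPM) and Zfp946 (16.8 and 18.2 RPM, 2218 and 744 reads, difference -0.11) the interval held 0. Zfp995, the close copy of Zfp947, was under the filter with 160 reads (1.21 RPM) and 11 reads (0.27 RPM), a 4.50-fold ratio (log2 interval 1.29 to 3.20).

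The smaller clusters held 8 members. On chromosome 8, Zfp964 was lower, Zfp963 was just under 2-fold with 9.28 and 18.3 RPM (1227 and 750 reads) and a log2 difference of -0.91, and Zfp930 had 39.4 and 30.2 RPM (5203 and 1236 reads) and a difference of 0.37. Zfp963 overlapped Gm20422 on the same strand, as Zfp973 and Zfp984 of the larger clusters overlapped Gm14305 and Gm20707. On chromosome 7, Zfp936 was the highest with 26.6 and 19.4 RPM (3518 and 793 reads) and a difference of 0.44, Zfp975 had 1.28 and 3.33 RPM (169 and 136 reads) and -0.93, and Zfp977 -0.35 (151 and 71 reads). On chromosome 13, Zfp934 and Zfp935, which overlap each other over 78685 bases on the same strand, had differences of -0.51 (162 and 89 reads) and -0.78 (177 and 123 reads).

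Of the 17 members outside clusters 2 were higher (11.8%) and 3 lower (17.6%), beside 18.7% and 9.22% of all genes. Their median log2 difference was 0.07, beside 0.26 over all genes. Beside those already given, Zfp961 had 109 and 69.2 RPM (14347 and 2828 reads) with a difference of 0.64, Zfp956 96.8 and 58.6 RPM (12797 and 2394 reads) with 0.72, and Zfp952 59.35 and 34.4 RPM (7845 and 1407 reads) with 0.77. Zfp937 had 20.3 and 10.98 RPM (2686 and 449 reads) with 0.83, and Zfp954 17.9 and 13.4 RPM (2367 and 546 reads) with 0.40. These 5, like Zfp957, were higher in IV 5% O2 by less than 2-fold, with intervals above 0. Zfp958 (77.1 and 82.2 RPM, 10187 and 3358 reads, -0.09) and Zfp940 (26.7 and 25.3 RPM, 3524 and 1035 reads, 0.07) were close to equal in the columns, and Zfp932 had 30.4 and 42.5 RPM (4014 and 1736 reads) with a difference of -0.47. The remaining 3, Zfp938, Zfp950 and Zfp974, had means under 10 RPM and differences from -0.42 to -0.08.

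**Figure D3:**
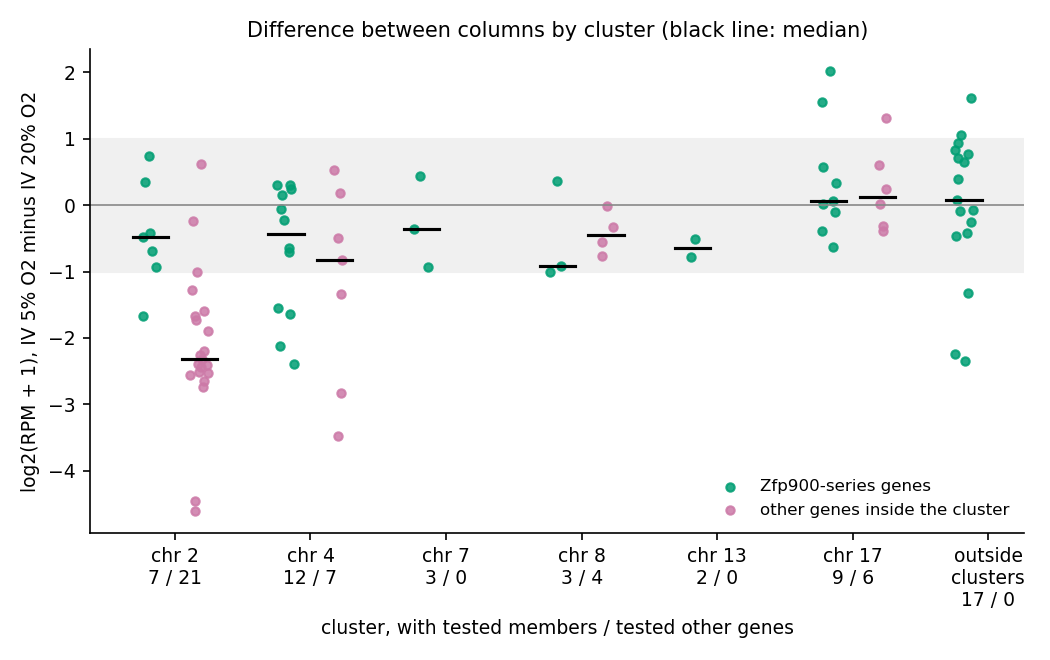
Points give the log2(RPM + 1) difference, IV 5% O2 minus IV 20% O2, of tested Zfp900-series genes and of the other tested genes inside each cluster, with black lines for medians and grey for under 2-fold. On chromosome 2 the other genes have a median of -2.32 and the Zfp900-series genes a median of -0.48. Of the 19 lower other genes there, 18 passed the filter only through IV 20% O2, so the medians are not a like comparison.

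To see whether the differences were those of the members, the other genes of the table that lie inside the clusters were counted. Of 38 tested, 1 was higher (2.63%) and 22 lower (57.9%), beside 18.7% and 9.22% of all genes, with a median log2 difference of -1.47. Of the 22, however, 20 were under 1 RPM in IV 5% O2 and passed the filter only through IV 20% O2. On chromosome 2, 19 of 21 tested were lower, 18 of them passing in this way, with a median of -2.32, and 8 of 25 had no reads in IV 5% O2 while none lacked reads in IV 20% O2. With genes without reads set to the 3-read floor and no pseudocount, this median fell on a gene without reads, so that its log2 ratio of -6.58 is a bound set by the floor and not a measured value. The 22 lower genes all had over 10% of windows repeated, out of 25 such genes tested, and among the 13 with at most 10% repeated none was lower.

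**Figure D4:**
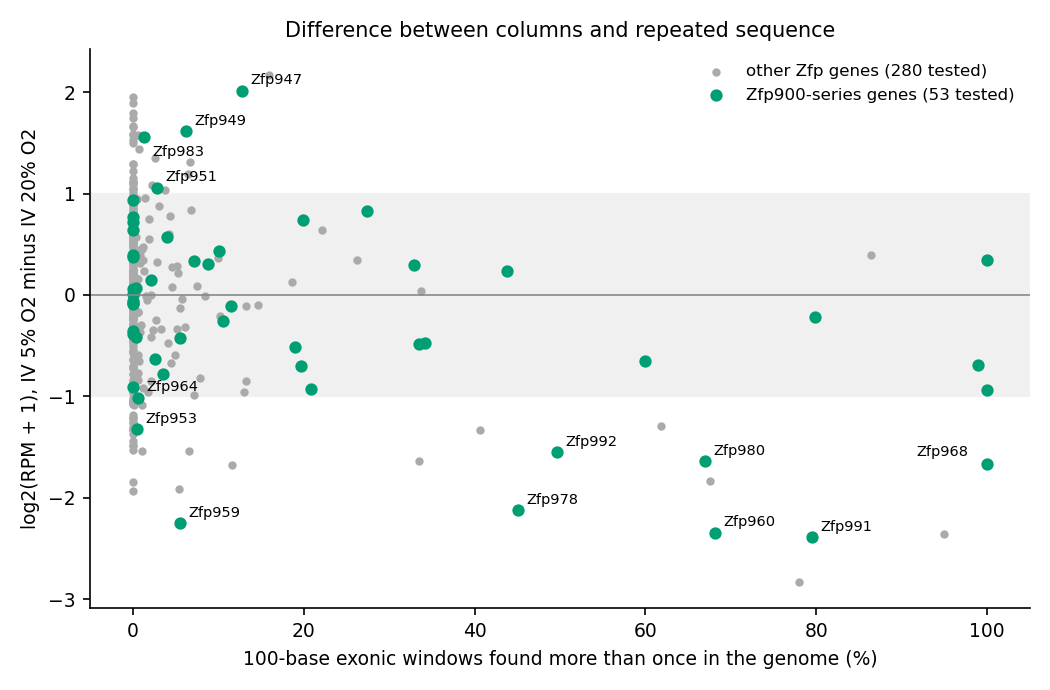
The x axis gives the share of 100-base exonic windows found more than once in the genome (%), the y axis the log2(RPM + 1) difference, IV 5% O2 minus IV 20% O2, for 53 tested Zfp900-series genes (named where at least 2-fold apart) and 280 other Zfp genes; the grey band is under 2-fold. Above 50% repeated windows 4 of 9 Zfp900-series genes are at least 2-fold lower and none is higher. Of all genes of this kind 63.7% are lower and 6.78% higher. Zfp968 and Zfp991, of the 4, passed the filter only through IV 20% O2.

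The members were then grouped by their share of repeated windows. Of 14 tested members without a repeated window none was called in either direction, beside 20.1% higher and 6.63% lower over all genes of this kind, and their median log2 difference was 0.04 beside 0.32. With above 0% to 10% repeated, 3 of 15 were higher and 3 lower, beside 16.1% and 9.47% of all such genes, with a median of 0.07 beside 0.18. With above 10% to 50%, 1 of 15 was higher and 2 lower, beside 13.3% and 20.4% of all such genes, with a median of -0.26 beside -0.01. With over 50%, 9 of 13 members were tested, 4 were lower (44.4%) and none higher, with a median of -0.94. Of the 4, Zfp968 and Zfp991 were under 1 RPM in IV 5% O2 and passed the filter only through IV 20% O2. So did Zfp966, whose value is this median. Over all genes of this kind 25 of 369 were higher and 235 lower (63.7%), with a median of -1.63. Over the 53 tested members Spearman's rho between the repeated share and the log2 difference was -0.39 and Pearson's r was -0.44. Both are given as a description, since members of a cluster share sequence and can share reads. Zfp966, Zfp968, Zfp978 and Zfp991, which passed the filter only through IV 20% O2, are among the 53. The part of read placement in these differences was not tested.

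For comparison, 290 other genes named Zfp and a number were in the table. Of 280 tested, 30 were higher (10.7%) and 35 lower (12.5%), and their median log2 difference was 0.03, which became -0.25 after median-ratio scaling and -0.16 after quantile normalization. The 109 tested that encoded a KRAB A box and at least 1 finger had 5 higher (4.59%) and 17 lower (15.6%), with a median of -0.15. The 49 tested members of the same kind had 4 higher (8.16%) and 9 lower (18.4%), with a median of -0.11. The 169 other Zfp genes tested that had a coding sequence but not both features had 25 higher (14.8%) and 17 lower (10.1%), with a median of 0.11. Zfp469 and Zfp707, also tested, were matched to no coding sequence and were left out of both groups.

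The genes through which KRAB zinc finger proteins are known to act were taken as a list of 20, all of which were tested. Of these 1 was higher and 1 lower (5% each), beside 18.7% and 9.22% of all genes. The median log2 difference was 0.20, beside 0.26 over all genes, and became -0.12 after median-ratio scaling. Trim28, the corepressor that binds the KRAB domain, had 558 RPM in IV 5% O2 against 357 RPM in IV 20% O2, a difference of 0.64. Setdb1, which methylates histone H3 at lysine 9, had 363 and 342 RPM and a difference of 0.09. Chd3, a chromatin remodeller, was higher with 11.6 and 4.23 RPM and a difference of 1.26, but was no longer counted with median-ratio scaling, a pseudocount of 5 or division by exonic length. Sumo2, a small ubiquitin-like modifier, was lower with 17.6 and 78.2 RPM and a difference of -2.09. Sumo2 was no longer counted when genes with over 10% of windows repeated were left out.

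The promoter sequence of RefSeq (GRCm38.p6, 250 bases before to 50 after the start) was found for 50 members, and for 46 the start lay within 500 bases of that of the row. The letters ACGTG, 1 form of the core of the site bound by hypoxia-inducible factors, stood on either strand in 11 of these 46 (23.9%), beside 19.7% of 27025 promoters of the table. The other form, GCGTG, also stood in 11 (23.9%), beside 32.5% of all. The 11 windows with ACGTG are not all separate, as those of Zfp942 and Zfp943 overlap on opposite strands and share a match. That of Zfp944 also holds a close copy of the Zfp942 sequence. A match is a description of these letters in this window and not of a bound site.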

How the data were processed

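RNA-seq of class IV oocytes, 2 libraries per oxygen condition, was used, and the RRBS and PBAT libraries were not. The authors aligned reads to mm10 (GRCm38) with TopHat (TopHat2 2.0.9 in the submitters' processing notes), quantitated them over merged exons in SeqMonk and deposited log2 values, 1 column per condition. How the libraries were combined, and whether counting used strand, is not given in the sources used here. The deposited values are called RPKM and the methods describe a length correction, but for 99.93% and 99.98% of genes the antilog was a whole number of steps (tolerance 0.05), the same step for every gene. They were therefore treated as log2 RPM, whole reads were recovered, and the 0.9-step entries of genes without reads became 0. The table's 1 value column of none of the samples was left out.

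The members, lists and tests were chosen with earlier results of these data known. No model could be fitted to 1 column per condition, so differences were described on log2(RPM + 1), with a minimum mean of 1 RPM, a 2-fold limit, and a floor of 3 reads. No whole-read count test was run, since a condition has 1 column. Depth limits the IV 20% O2 column most, where 1 read is 0.0245 RPM. Rows were matched to GENCODE genes by coordinates (58 of 59 members, Zfp967 by name). Named were members at least 2-fold apart, those averaging at least 10 RPM, the extremes of each cluster of at least 3 members, those nearest the 2-fold limit, and, of the corepressor genes, Trim28, Setdb1 and those 2-fold apart. Fingers and KRAB A boxes were found by pattern in translated GENCODE coding sequences, in place of the RefSeq proteins planned. The KRAB A pattern was widened by 1 residue after Zfp952 was seen to be missed. The script was tested on simulated reads. Alternatives were pseudocounts of 0.1 and 5, other filters and scalings, summed rows, division by exonic length, at most 10% of windows repeated, windows of 50 bases and a 2 Mb cluster gap. Scripts ran in Python 3.11.15 with pandas 2.3.3, numpy 2.4.6, numba 0.67.0, scipy 1.17.1 and, for figures, matplotlib 3.10.9.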

Additional observations from a re-analysis of the deposited data

How the results depend on the processing

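No paired analysis was possible because the table gives 1 column per condition, without replicate numbers, so the replicate block, leaving out each library and limma could not be run. Depth limits members with few reads, such as Zfp995 with 11 reads in IV 20% O2. Where values moved, the cause was not tested, except that fewer genes were counted under a stricter filter or repeat limit. Of 422 values of single members under the alternatives, 361 lay within a tolerance of the main value and 61 beyond it. The tolerance was the distance from the main log2 difference to the farther end of its interval. It was wide for members with few reads, such as Zfp991, whose values ran from -5.26 to -0.89, and was 0 for Zfp968. These counts are thus not a measure of counting error. No 2-fold member changed sign, while 5 members under 2-fold changed sign with median-ratio scaling and 4 with quantiles. Among all genes, higher genes made up 67.0% of those 2-fold apart as deposited, 45.6% after median-ratio scaling and 48.6% after quantile normalization. With a 2 Mb gap there were 7 clusters in place of 6, and with 50-base windows 38 members in place of 29 had over 10% repeated.

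With a pseudocount of 5, 2 members were higher and 4 lower, 1 was higher on chromosome 17, 0 were lower on chromosome 2, 2 on chromosome 4 and 0 on chromosome 8, where the median was -0.71. The same setting gave 0 higher and 8 lower cluster neighbours with a median of -0.63, 13 higher and 11 lower other Zfp genes, and 0 higher corepressor genes. With a pseudocount of 0.1, 2 members were lower on chromosome 2 and 1 on chromosome 7, and the neighbours' median was -2.14. Without a filter, 3 members were lower on chromosome 2, and the medians on chromosomes 4 and 17 were -0.70 and 0.20.

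With a minimum mean of 5 RPM, the members' median was 0.060, the median on chromosome 7 was 0.44, and 1 member was higher on chromosome 17, 0 were lower on chromosome 2 and 2 on chromosome 4. There, 4 neighbours (median -0.56) and 22 other Zfp genes were lower. With at most 10% of windows repeated, the members' median was 0.060 and 3 members were lower. There was 1 higher on chromosome 17, and 0 were lower on chromosomes 2 and 4. The chromosome 4 median, 0.15, was the value of Zfp985 alone. The neighbours then had 0 lower and a median of -0.01 (to 3 digits -0.0096), and 0 corepressor genes were lower.

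After median-ratio scaling the summed level of members differed by -191 RPM and after quantile normalization by -92.2 RPM, against 76.8 as deposited. The members' medians were -0.41 and -0.30 in that order, those on chromosome 17 -0.24 and -0.10, those on chromosome 8 -1.21 and -1.07, those of other Zfp genes -0.25 and -0.16, and those of the corepressor genes -0.12 and 0.019. Both scalings gave 2 lower members on chromosome 2, 1 on chromosome 7 and 2 on chromosome 8. The medians on chromosomes 2 and 4 were -0.80 and -0.69 with median-ratio scaling, and that on chromosome 7 was -0.73 with quantile normalization. With median-ratio scaling 17 other Zfp genes were higher and 59 lower, and 0 corepressor genes were higher and 2 lower.

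After division by exonic length, 2 members were higher and 5 lower, 1 was higher on chromosome 17, 0 were lower on chromosomes 2 and 8, and the chromosome 7 median was 0.049. The neighbours had 0 higher and 8 lower with a median of -0.54, other Zfp genes 17 higher and 9 lower, and the corepressor genes 0 higher.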
